A study of Sus scrofa with 22 samples.

Results

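SFTPD, DMBT1 and REG3G encode secreted proteins of mucosal surfaces that bind microbes, and were followed here in the small intestine of piglets given chemotherapy. The members are all probes of the pig array whose listed transcript carries one of these 3 symbols: 4 of 43603 probes, 1 for SFTPD (transcript NM_214110), 1 for REG3G (NM_001144847) and 2 for DMBT1 (both NM_001048188). All 4 passed the filter on dim probes and were well above background on 22 of 22 arrays. The study holds 22 crossbred piglets (Large White × Danish Landrace, specific-pathogen-free, given as 3 days old) that had suckled the sow and were fitted with an orogastric tube and a jugular catheter, and they come from 2 separate experiments. In the DOX experiment 6 piglets received a single intravenous dose of doxorubicin, a topoisomerase II inhibitor, and 6 were untreated. In the BUCY experiment 5 received the DNA-alkylating drugs busulfan and cyclophosphamide intravenously, and 5 were untreated. SFTPD and DMBT1 stand in the title of the study. Neither the doses nor the time of sampling nor the part of the small intestine is stated in the sources used here.

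Surfactant protein D is a collectin, a trimeric protein with a collagen-like tail and a carbohydrate-recognition domain that binds sugars of bacteria, viruses and fungi in a calcium-dependent way. It was first known from the lung and is also made by epithelia of the gut. DMBT1, also called gp340 or salivary agglutinin, is a large epithelial glycoprotein of repeated scavenger receptor cysteine-rich domains that binds bacteria and binds surfactant protein D. REG3G is a small C-type lectin secreted by enterocytes and Paneth cells that, in mice, kills Gram-positive bacteria by binding their peptidoglycan and is induced by interleukin-22 and by bacterial signals through MyD88.

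Levels are log2 ratios between the RNA of a piglet (Cy5) and a pool of all samples (Cy3) hybridised to 1 array, so 0 is the level of the pool and a difference of 1 is a doubling. A difference was called when limma's adjusted p, over all 31752 tested probes, was under 0.05. After loess and scaling to a common intensity distribution, the pool's Cy3 signal varied less between arrays on the log2 scale than the piglets' Cy5 signal. The Cy3 SD was 0.097 for SFTPD, 0.13 for REG3G, 0.31 for the brighter DMBT1 probe and 0.13 for the dimmer one. The piglets' Cy5 signal had an SD of 1.02 to 2.03. Before scaling, the net Cy3 signal of the brighter DMBT1 probe ran from 52023 to 106551.5. It was 76320.5 to 106551.5 on BUCY untreated arrays and 52023 to 103613.5 on BUCY treated ones. Apart from piglet 3 the BUCY treated arrays reached 80778.5. The weakest signal of a member was that of SFTPD, 223 to 2811 above a local background of 52 to 99. Between 59.7% and 72.5% of all probes on an array were well above background. BUCY treated piglets 2 and 3 stood apart from all other arrays on the second principal component (71.5 and 86.3), and the array of piglet 3 was the dimmest, with a median Cy5 signal of 88. The 22 arrays lay on 7 slides scanned on 3 days, and a slide often held piglets of several groups. Whole tissue was measured, so fewer cells of a type and less RNA per cell cannot be told apart.

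REG3G showed the widest range of the 3 genes and rose after both treatments. In untreated piglets it lay far below the pool, between -3.57 and -1.76 in the DOX experiment (median -2.85, n = 6), and at -2.84, -2.75, -2.47, -2.40 and -2.26 in the BUCY experiment. After DOX it ranged from -1.99 to 1.43 (median -0.38, n = 6), and after BUCY it lay at 0.35, 1.61, 2.05, 2.17 and 2.38. Piglets given BUCY were all above every untreated piglet of that experiment. In the DOX experiment the groups overlapped through 1 treated piglet, and 5 of 6 treated piglets lay above the highest untreated one.

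The DOX treated mean of REG3G was -0.35 ± 1.15 (SD, n = 6) and the untreated mean -2.71 ± 0.61 (SD, n = 6), a 5.12-fold difference. The log2 change was 2.35 (SE 0.424, 95% confidence interval 1.47 to 3.24, limma adjusted p = 0.00513), the largest increase among the 31752 probes in this fit. In the BUCY experiment the means were 1.71 ± 0.81 (SD, n = 5) with the drugs and -2.54 ± 0.24 (SD, n = 5) without, a 19.1-fold difference and again the largest increase (log2 change 4.25, SE 0.464, interval 3.29 to 5.22, limma adjusted p = 2.28e-05). The BUCY change exceeded the DOX change by 1.90 on the log2 scale (interval 0.59 to 3.20) without passing over all probes (limma adjusted p = 0.0714). It did pass when DOX treated piglet 2 or BUCY treated piglet 4 was left out, with an adjusted p of 0.0161 at the lowest. On single slides carrying both groups the DOX difference was 1.56 to 3.18 and the BUCY difference 3.67 to 5.22. Under median centring in place of loess the DOX change was 2.26 and missed the threshold (adjusted p = 0.0542).

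The second gene, DMBT1, changed most after BUCY, where its brighter probe had the smallest p of all 31752 probes. In untreated BUCY piglets this probe lay at -2.84, -2.42, -2.25, -2.16 and -1.78, and after BUCY at -0.13, 0.81, 0.87, 1.18 and 1.35. The groups were 1.65 apart at their nearest piglets. Under median centring they overlapped, with treated piglet 3 at -1.61 and the highest untreated piglet at -1.58. In the DOX experiment untreated piglets lay between -0.28 and 0.34 (median -0.12, n = 6) and treated ones between 0.30 and 1.11 (median 0.55, n = 6). After loess the DOX groups overlapped only at their edge, where the lowest treated piglet lay 0.046 below the highest untreated one. The overlap was broad under median centring, with untreated piglet 1 at 1.39, above every treated piglet but number 3 (1.61).

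The brighter DMBT1 probe had a mean of 0.81 ± 0.57 (SD, n = 5) after BUCY and of -2.29 ± 0.39 (SD, n = 5) in untreated piglets, an 8.61-fold difference. The log2 change was 3.11 (SE 0.225, interval 2.64 to 3.57, limma adjusted p = 1.34e-07), and it was 2.77 to 3.51 within 3 slides. Its DOX treated mean was 0.61 ± 0.29 (SD, n = 6) and the untreated mean -0.06 ± 0.22 (SD, n = 6), a log2 change of 0.67 (interval 0.24 to 1.09) that missed the threshold over all probes (limma adjusted p = 0.118). The 2 DMBT1 changes differed by 2.44 (SE 0.305, interval 1.80 to 3.07, limma adjusted p = 3.34e-04); such a difference was called in 4.01% of all probes. The DOX change passed when only the DOX groups were fitted (adjusted p = 0.0207), when BUCY treated piglet 3 was left out (0.0396), and when piglets 2 and 3 of that group were both left out (0.0346). Under median centring the DOX change was 0.51 (adjusted p = 0.718). The difference between the changes was 2.0 in that setting and missed the threshold (adjusted p = 0.131).

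The dimmer DMBT1 probe moved the same way by less. It lay at -1.92, -1.89, -1.53, -0.80 and -0.60 in untreated BUCY piglets and at 0.05, 0.68, 0.83, 1.23 and 1.27 after BUCY, with no overlap. This is a 4.47-fold difference (log2 change 2.16, SE 0.273, limma adjusted p = 4.89e-05). Under median centring the BUCY groups overlapped for this probe, with treated piglet 3 at -1.49 and the highest untreated piglet at -0.72. In the DOX experiment the untreated piglets lay between -0.25 and 0.56 (median 0.13, n = 6) and the treated ones between 0.17 and 1.30 (median 0.33, n = 6), with broad overlap and a log2 change of 0.38 (interval -0.14 to 0.90, limma adjusted p = 0.513). The difference between the changes was 1.78 for this probe (limma adjusted p = 0.00580; 1.46 and 0.192 under median centring). Both probes list the same transcript, and why they differ in size was not tested.

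SFTPD rose after BUCY, and after DOX the piglets separated without the gene passing over all probes. It lay at -2.50, -1.85, -1.80, -1.66 and -1.29 in untreated BUCY piglets and at -1.07, -0.39, 0.06, 0.52 and 0.62 after BUCY. After loess every treated piglet was above every untreated one, and the lowest treated piglet, number 2, was 0.22 above the nearest untreated one. Under median centring treated piglets 2 and 3 (-1.54 and -1.67) overlapped the untreated ones, the highest of which was at -1.14. In the DOX experiment untreated piglets spread from -1.43 to 0.40 (median -0.21, n = 6), while treated ones lay close together between 0.43 and 0.92 (median 0.65, n = 6). The DOX groups did not overlap, though by only 0.025.

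The SFTPD mean was -0.05 ± 0.70 (SD, n = 5) with BUCY and -1.82 ± 0.44 (SD, n = 5) without, a 3.41-fold difference with a log2 change of 1.77 (SE 0.315, interval 1.11 to 2.42, limma adjusted p = 7.69e-04). With DOX it was 0.68 ± 0.17 (SD, n = 6) and without -0.39 ± 0.68 (SD, n = 6), a log2 change of 1.07 (SE 0.288, interval 0.47 to 1.67, limma adjusted p = 0.0758). The changes after the drugs differed by 0.70 (interval -0.19 to 1.59, limma adjusted p = 0.377), so a difference of this size was not detectable with these arrays. The DOX change passed with the slide as a fixed block (1.39, adjusted p = 0.0114) or a random block (1.20, adjusted p = 0.0267), and in 5 of 16 alternatives in all. It also passed without BUCY treated piglet 2 or DOX untreated piglet 6, with an adjusted p of 0.0454 at the lowest. Under median centring the DOX change was 0.97 and lay farther from the threshold (adjusted p = 0.384). The BUCY change was 1.59 and missed the threshold when the 6 arrays with a suffix in their title were left out (adjusted p = 0.0639). That left BUCY treated piglets 1 and 2 against BUCY untreated piglets 1, 2 and 3.

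Of the 4 probes, 1 rose past the threshold after DOX, where 0.406% of all tested probes did, and 4 rose after BUCY, where 9.14% did. Without overlap between groups after loess, 1 of 4 was higher after DOX, against 1.14% of all probes, and 4 of 4 after BUCY, against 3.48%. Under median centring the BUCY groups overlapped for SFTPD and both DMBT1 probes and stayed apart for REG3G. The 2 DMBT1 probes share a transcript and count as 1 gene. Without BUCY treated piglets 2 and 3 the BUCY changes were 2.22 for SFTPD, 4.18 for REG3G, 3.40 for DMBT1 and 2.46 for its dimmer probe, each past the threshold.

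**Figure D1:**
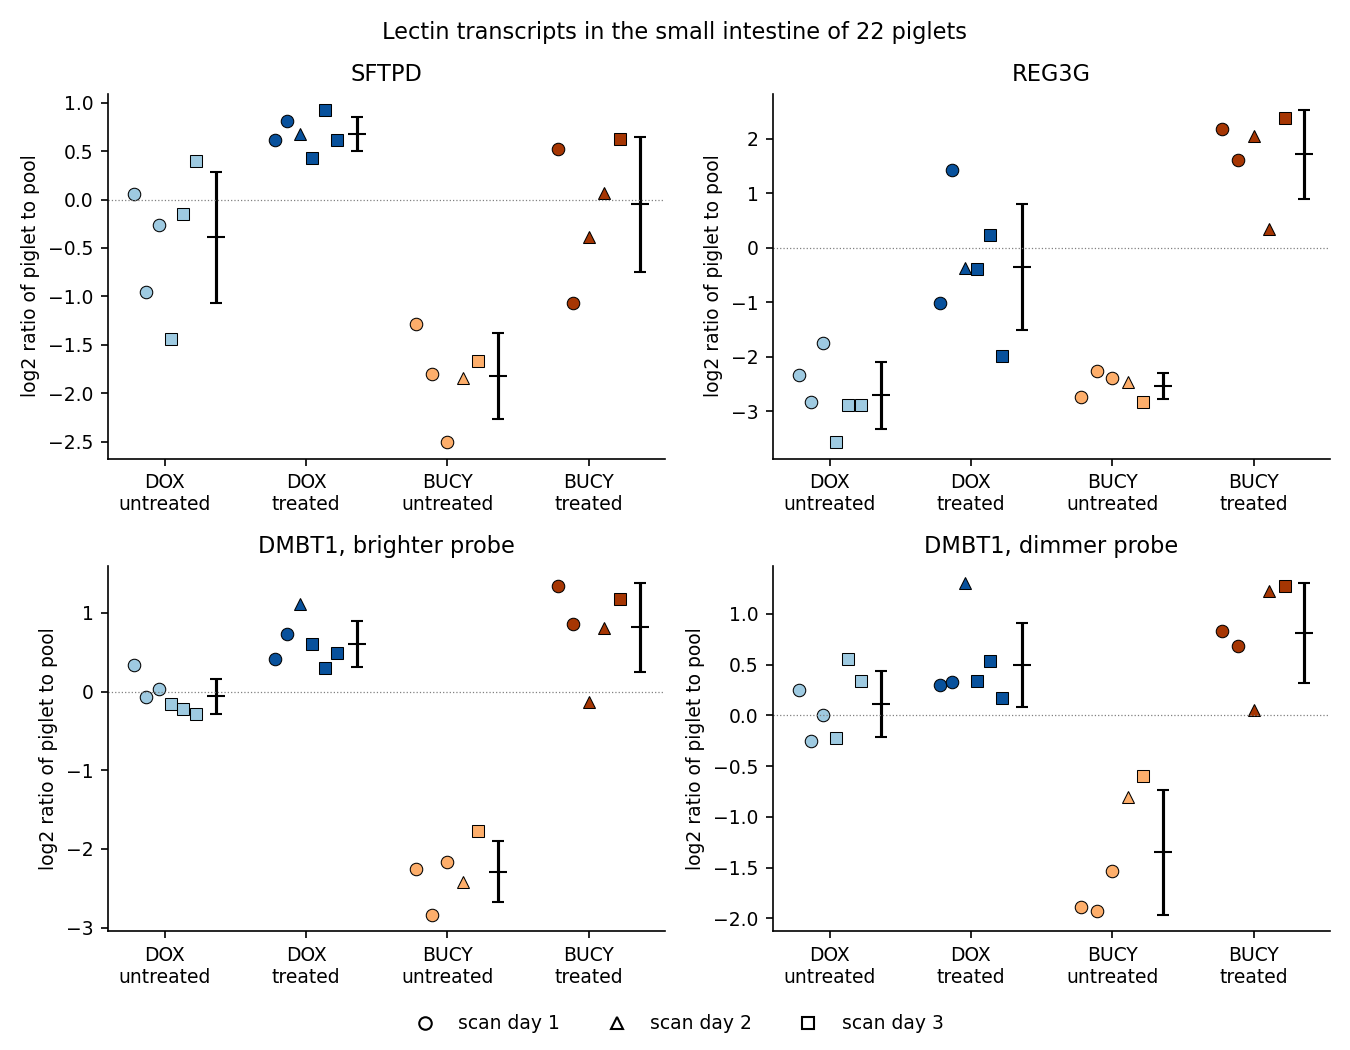
Each panel plots the log2 ratio of piglet to pool (vertical axis) for 1 probe in the 4 groups. Points are piglets, their shape gives the scan day, and bars are the mean ± SD. REG3G was low in both untreated groups, whereas SFTPD and both DMBT1 probes were lowest in untreated BUCY piglets.

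The untreated piglets of the 2 experiments differed in SFTPD and DMBT1, and for REG3G the difference did not pass. The brighter DMBT1 probe was 4.69-fold lower in untreated BUCY piglets than in untreated DOX piglets (log2 change -2.23, SE 0.215, interval -2.68 to -1.78, limma adjusted p = 2.06e-07). Its dimmer probe was 2.75-fold lower (log2 change -1.46, limma adjusted p = 2.40e-04), and neither probe's untreated groups overlapped. SFTPD was 2.69-fold lower (log2 change -1.43, SE 0.302, limma adjusted p = 0.00115), and its groups overlapped through the lowest DOX untreated piglet. REG3G differed by 0.17 (interval -0.76 to 1.09, limma adjusted p = 0.834), a difference whose sign turned under median centring (-0.12), with the slide as a block (-0.29), and without DOX untreated piglet 4 (-0.0048).

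Such differences were common: 14.5% of all probes were lower in untreated BUCY piglets past the threshold, and 10.8% were lower without overlap. Within the 2 slides that hold both untreated groups, the DMBT1 difference was -2.57 and -1.53, and the SFTPD difference -1.28 and -1.79. Cell type markers differed in the same comparison. Of 6 tested crypt and proliferation markers 5 were lower in untreated BUCY piglets under each scaling, among them CCNB1 (-2.41), BIRC5 (-1.80) and TOP2A (-1.52). The goblet cell factor SPDEF (-1.35) and the Paneth cell marker LYZ (-2.0) were also lower under each scaling. Of 4 epithelial markers KRT8 (-0.88) and CDH1 (-0.75) were lower, CDH1 not past the threshold under median centring or with Cy5 alone. Of 5 enterocyte markers FABP1 was lower (-1.46) and ANPEP (0.82) and SLC5A1 (1.51) higher, and 0 passed under median centring; FABP1 and ANPEP also missed with Cy5 alone, and ANPEP with the scanner's log ratios. Macrophage markers CD163 (-0.63) and AIF1 (-0.81), the B cell marker CD79A (-0.67) and 2 of 9 T and NK cell markers were lower, and the pancreatic AMY2 (1.06) and SFTPB (0.27) were higher; CD163 and AMY2 missed the threshold under median centring, and CD163 with Cy5 alone. The part of these markers in the lectin differences was not tested. What else set the experiments apart beside the drug given to the treated piglets was not tested here.

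The treated piglets of the experiments lay closer together in DMBT1. Its brighter probe differed by 0.21 between BUCY treated and DOX treated piglets (interval -0.24 to 0.65, limma adjusted p = 0.566) and its dimmer probe by 0.32 (interval -0.23 to 0.86, limma adjusted p = 0.451). Both signs turned under median centring (-0.53 and -0.33) and with the slide as a block (-0.044 and -0.22). SFTPD was 0.73 lower after BUCY than after DOX without passing (interval -1.36 to -0.10, limma adjusted p = 0.114); it passed under median centring (-1.25, adjusted p = 0.0328) and without BUCY treated piglet 5 (adjusted p = 0.0474). REG3G was 4.19-fold higher after BUCY than after DOX (log2 change 2.07, SE 0.445, limma adjusted p = 0.00410), where 4.65% of all probes were higher. The REG3G call ended in 4 of 16 alternatives, among them the slide as a block (1.73, adjusted p = 0.104) and median centring (1.43, adjusted p = 0.0671).

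Ordered by group mean, SFTPD ran from DOX treated through BUCY treated and DOX untreated to BUCY untreated. Its neighbours in that order were set against each other by exact permutation tests, 2-sided and unadjusted, 24 in all for the 4 probes and 6 pairs of groups. DOX treated lay above BUCY treated (exact p = 0.0173), BUCY treated and DOX untreated did not differ beyond their spread (exact p = 0.426), and DOX untreated lay above BUCY untreated (exact p = 0.00866). For REG3G the order was BUCY treated, DOX treated (exact p = 0.0130 between them), BUCY untreated (exact p = 0.00433 below DOX treated) and DOX untreated (exact p = 0.589 between the untreated groups). For DMBT1 it was BUCY treated, DOX treated (exact p = 0.457), DOX untreated (exact p = 0.00433 below DOX treated) and BUCY untreated (exact p = 0.00216, the smallest that 462 splits allow). The dimmer probe had the same order, but its DOX groups did not differ beyond their spread (exact p = 0.0996). Within the experiments SFTPD gave exact p = 0.00216 for DOX, the smallest that 924 splits allow. All 4 probes gave exact p = 0.00794 for BUCY, the smallest that 252 splits allow.

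**Figure D2:**
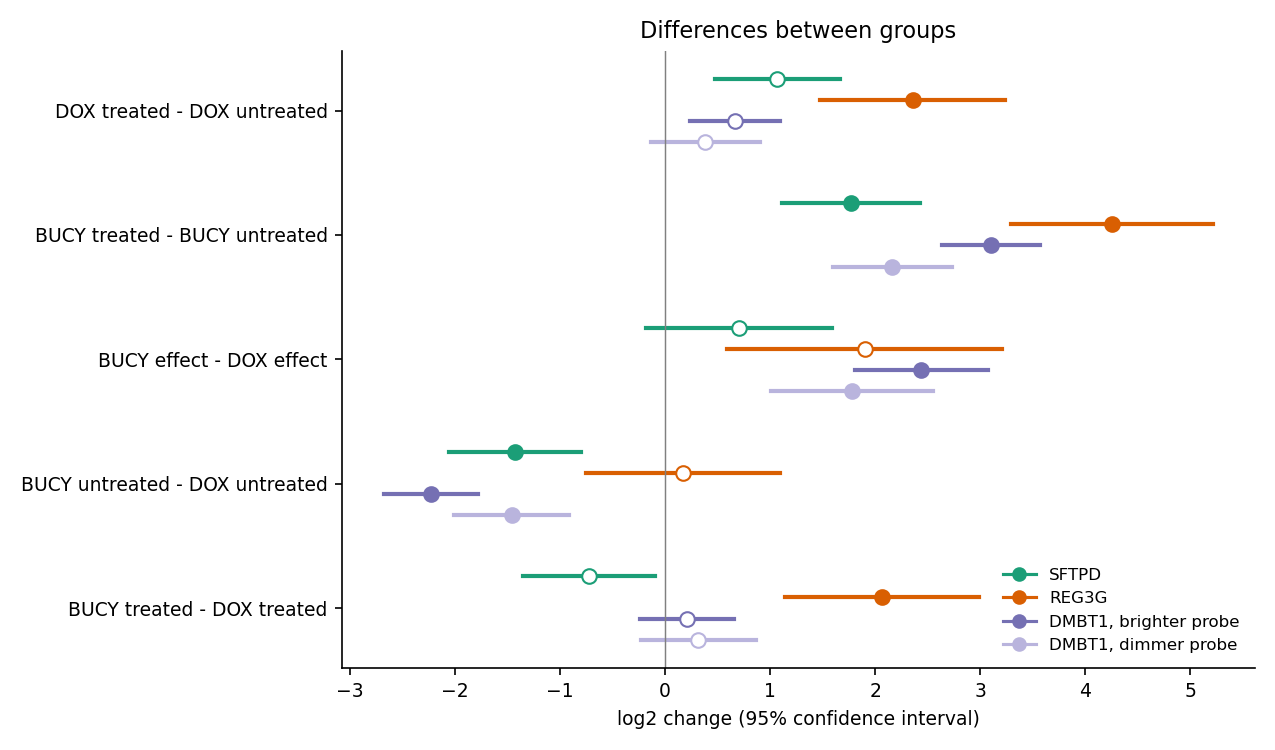
Points are log2 differences between the groups named at the left, bars are 95% confidence intervals from limma, and filled points passed an adjusted p of 0.05. DMBT1 differed between the untreated groups (-2.23) and not detectably between the treated groups (0.21), while REG3G did the reverse (0.17 and 2.07).

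The deposited value table gave nearly the same levels. In it SFTPD was at 0.70 after DOX, -0.36 in its untreated group, -0.04 after BUCY and -1.79 in its untreated group. REG3G was at -0.28, -2.67, 1.66 and -2.45 in these groups. The brighter DMBT1 probe was at 0.47, -0.15, 0.64 and -2.60, and the SD of its untreated BUCY group was 0.68 there against 0.39 with loess. Fitted the same way, the table's BUCY changes were 1.75 for SFTPD, 4.11 for REG3G and 3.24 for DMBT1, and its DOX changes 1.06, 2.39 and 0.62. The same calls were made at the threshold.

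The piglets of a group varied in all 3 genes, and the genes showed no detectable covariation within groups. Each value was taken as its deviation from its group's mean, so that differences between groups do not enter. Over 22 piglets the deviations of SFTPD and DMBT1 correlated with Pearson's r = 0.24 (95% interval -0.24 to 0.63, permutation p = 0.388, 0.581 adjusted over 3 pairs; Spearman's rho 0.22, permutation p = 0.366). SFTPD and REG3G gave r = 0.25 (interval -0.23 to 0.63, permutation p = 0.232, adjusted 0.581; rho 0.30, permutation p = 0.20). DMBT1 and REG3G gave r = 0.11 (interval -0.36 to 0.54, permutation p = 0.646, adjusted 0.646; rho 0.22, permutation p = 0.335). In each pair 14 of 22 piglets deviated in the same direction in both genes. The intervals leave room for correlations of moderate size in either direction.

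Without the 2 piglets farthest from the median of the first gene, r was 0.30, 0.15 and 0.30 for these pairs. Within scan day 1 (n = 10) r was 0.30, 0.28 and 0.28, and within scan day 3 (n = 8) it was 0.13, 0.52 and 0.16. No r is given for scan day 2, which holds 4 piglets, since batches and groups of fewer than 6 were not used. With slide means removed as well, r was 0.25, 0.034 and 0.00026. Under median centring r rose to 0.61, 0.48 and 0.48, each with an adjusted permutation p of 0.0627. The DMBT1 and REG3G pair had r = -0.033 with the dimmer DMBT1 probe. For comparison, the deviations of the 2 DMBT1 probes correlated with r = 0.60 (permutation p = 0.0118, n = 22).

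Inside the groups of 6, SFTPD and REG3G gave r = 0.54 among DOX treated piglets (exact permutation p = 0.233) and 0.51 among DOX untreated ones (exact permutation p = 0.286). DMBT1 and REG3G gave 0.20 (exact permutation p = 0.683) and 0.57 (exact permutation p = 0.239), and SFTPD and DMBT1 -0.16 (exact permutation p = 0.761) and 0.12 (exact permutation p = 0.831). Adjusted over these 6 tests each p was 0.572 or more. Without the 2 piglets farthest from the group median of the first gene, 4 piglets remained and r moved widely. It was 0.97 for SFTPD and REG3G, 0.85 for DMBT1 and REG3G and 0.39 for SFTPD and DMBT1 among treated piglets, and -0.61, 0.79 and -0.27 among untreated ones, so the values inside these groups rest on few piglets. Among DOX treated piglets the 2 DMBT1 probes had r = 0.75 with each other (exact permutation p = 0.131, rho 0.31). Among DOX untreated piglets these probes had r = -0.094 (exact permutation p = 0.886, rho -0.43). No r is given for the BUCY groups of 5.

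Some piglets ranked alike in the 3 genes and others did not. BUCY treated piglets 1 and 5 had the 2 highest values of their group in SFTPD (0.52 and 0.62), REG3G (2.17 and 2.38) and the brighter DMBT1 probe (1.35 and 1.18). With the dimmer DMBT1 probe piglet 5 was highest (1.27), but piglet 1 was the median (0.83). DOX untreated piglet 4 had the lowest SFTPD (-1.43) and REG3G (-3.57) of its group. DOX treated piglet 2 had the highest REG3G of its group (1.43) with the second highest SFTPD (0.81) and brighter DMBT1 probe (0.73). Its dimmer DMBT1 probe, at 0.33, lay below those of DOX treated piglets 3, 4 and 5. BUCY treated piglet 3 had the lowest DMBT1 of its group with both probes (-0.13 and 0.05) and a REG3G of 2.05, the third highest. BUCY treated piglet 2 had the lowest SFTPD of its group (-1.07). Its brighter DMBT1 probe was the median (0.87) and its dimmer one the second lowest (0.68). BUCY treated piglet 4 had the lowest REG3G (0.35) with an SFTPD of 0.06, the median. Under median centring the ranks of BUCY treated piglets 2 and 3 changed. Piglet 3 was then lowest in SFTPD (-1.67) and the brighter DMBT1 probe (-1.61), and second lowest in REG3G (0.54). Piglet 2 was second lowest in SFTPD (-1.54) and the brighter DMBT1 probe (0.30), with the median REG3G (1.03).

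**Figure D3:**
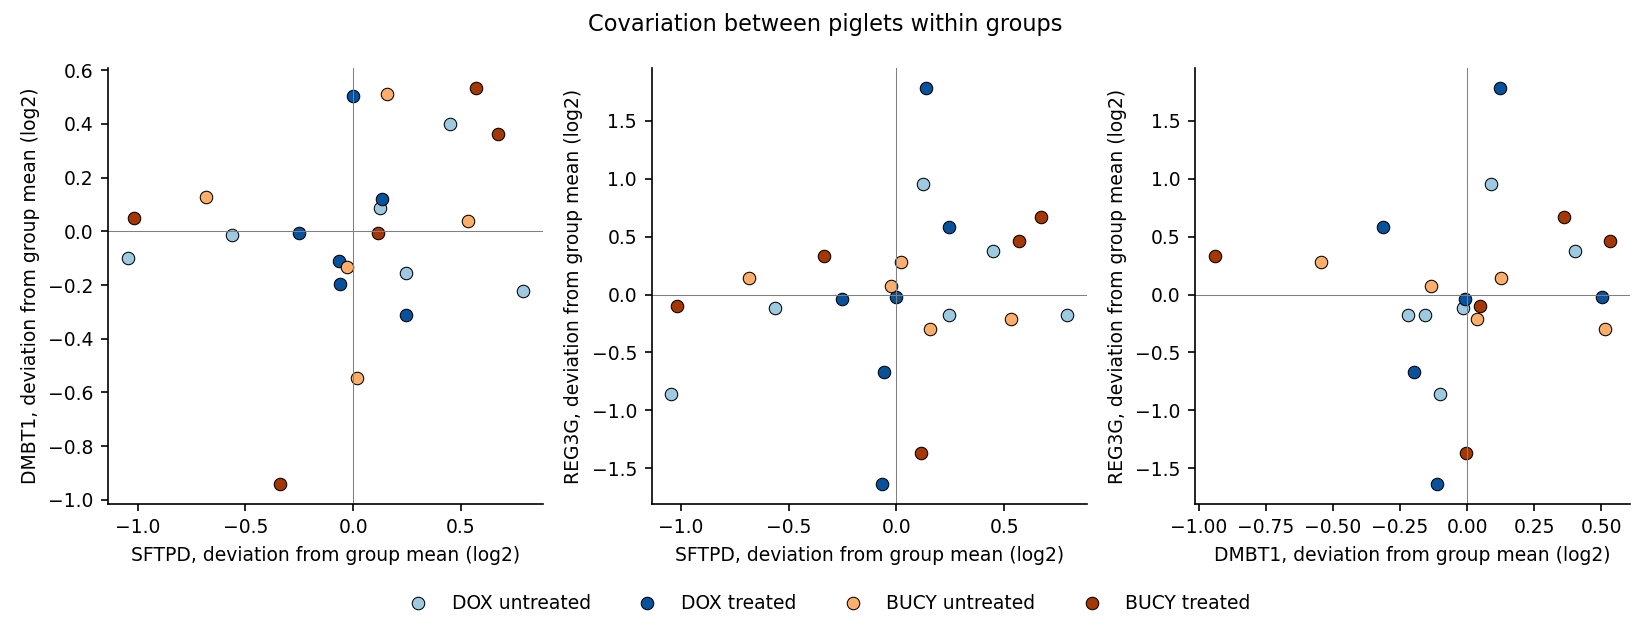
Each panel sets the deviations of 2 genes from their group means (log2) against each other, 1 point per piglet, coloured by group. No pair shows a clear slope, with r of 0.24, 0.25 and 0.11.

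Across the 22 values themselves, group differences included, SFTPD and DMBT1 had r = 0.82, and 0.0409% of the other tested probes had a higher r with SFTPD. REG3G had r = 0.51 with SFTPD and 0.62 with DMBT1. These are descriptions: the points share a pool and the 4 groups, and the same SFTPD and DMBT1 values had r = 0.24 once group means were removed. By symbol, the genes most like SFTPD over the 22 values were ACSS2 (r = 0.84), CCS (0.82), FASN (0.79) and CP (0.78), of 2654 symbols compared, the members left out; the brighter DMBT1 probe, at 0.82, would stand between ACSS2 and CCS. ACSS2 makes acetyl-CoA from acetate, CCS loads copper into superoxide dismutase, FASN is the fatty acid synthase and CP is the copper carrier ceruloplasmin. Most like REG3G were SULT1A3 (0.83), SETD3 (0.79), KCNMA1 (0.77) and SLC7A2 (0.74), and most like DMBT1 were KAZALD1 (0.87), GFPT1 (0.85) and COX7A2 (0.83). Spearman's rho with DMBT1 was 0.80 for KAZALD1, 0.57 for GFPT1 and 0.40 for COX7A2.

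Other genes led once group means were removed. SFTPD was then most like DDT (r = 0.84), AKR1A1 (0.79), PPP2R5D (0.78) and ACSS2 (0.76). REG3G was most like CHEK2 (0.66), LDB1 (0.62), FOXA1 (0.61) and PET100 (0.61), and DMBT1 most like ZUFSP (0.76), GK (0.71), NOG (0.69) and TMLHE (0.69). ACSS2 was the gene named for SFTPD by both measures. For REG3G and DMBT1 no gene was named by both. These values are the highest of 2654 and were chosen as such. Without the 2 piglets farthest from the DMBT1 median, r was 0.62 for ZUFSP, 0.44 for GK, 0.57 for NOG and 0.41 for TMLHE. Left out in the same way, r was 0.74 to 0.80 for the SFTPD genes and 0.49 to 0.69 for the REG3G genes.

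Of the other surfactant proteins, which mark lung epithelium, SFTPB was well above background on all arrays, and SFTPA1 and SFTPC on 1 at most. Each of the 2 SFTPA1 probes was well above background on 0 of 22 arrays, and SFTPC on 1. Of the 2 SFTPB probes, 1 was above background on 22 arrays and the other on 0, and the first differed by 0.02 after DOX and -0.11 after BUCY (limma adjusted p = 0.938 and 0.437). The mannose-binding collectins MBL1 and MBL2 stood well above background on 0 arrays. Of 11 listed collectins, ficolins and surfactant proteins, 7 had a probe and 3 were tested, and 0 passed for either drug. The ficolins, lectins that activate complement, were at 0.37 after DOX and 0.76 after BUCY for FCN1 (limma adjusted p = 0.540 and 0.0655) and at 0.32 and 0.72 for FCN2 (limma adjusted p = 0.575 and 0.0624). With Cy5 alone all 3 tested genes passed for BUCY, FCN1 (0.93) and FCN2 (0.58) higher and SFTPB (-0.41) lower.

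Among 11 tested REG proteins, galectins, intelectins and other gut lectins, 1 passed for BUCY and 0 for DOX. REG4, a secreted REG protein of the gut epithelium, rose 2.15-fold after BUCY (log2 change 1.10, limma adjusted p = 0.0252), a call that ended under median centring (0.53) and without BUCY treated piglets 2 and 3 (0.43), where the galectin LGALS4 passed (0.70). The list's median change was 0.07 after DOX and 0.25 after BUCY, beside medians near 0 over all probes, and -0.05 and -0.21 under median centring. For DOX the gene with the smallest p was LGALS8, a galectin, at -0.49 (limma adjusted p = 0.121). The scavenger receptor family to which DMBT1 belongs had 3 tested members. CD163, the haemoglobin scavenger receptor of macrophages, rose after DOX (log2 change 1.31, limma adjusted p = 4.62e-04) and after BUCY (1.44, limma adjusted p = 1.58e-04); both calls ended under median centring (1.17 and 0.94). TMPRSS15, the enteropeptidase that activates trypsinogen, was 3.89-fold lower after BUCY (limma adjusted p = 0.00299), and missed the threshold without BUCY treated piglets 2 and 3 (log2 change -1.32, adjusted p = 0.0638). CD5L was at -0.89 and 0.82 (limma adjusted p = 0.325 and 0.206), and passed for BUCY with the scanner's log ratios (1.75).

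The signalling genes that induce such lectins had 22 tested members of 28. After DOX 0 passed, and the smallest p was that of IL18, at 0.86 (limma adjusted p = 0.102). After BUCY 4 rose and 1 fell. IL1B, an inflammatory cytokine, rose (log2 change 1.38, limma adjusted p = 0.00772), as did STAT3, the transcription factor downstream of interleukin-22 and interleukin-6 (0.91, limma adjusted p = 0.00846), and NFKBIA, the inhibitor of NF-kappaB (0.89, limma adjusted p = 0.0229). IL6ST, the shared receptor chain of the interleukin-6 family, rose by 0.91 (limma adjusted p = 0.0301); it and NFKBIA were named after their values were seen. IL10RB, a chain of the interleukin-22 receptor, fell by 0.84 on the log2 scale (limma adjusted p = 0.0149). Without BUCY treated piglets 2 and 3 all 5 BUCY calls ended, with IL1B at 0.76, STAT3 at 0.62, NFKBIA at 0.36, IL6ST at 0.40 and IL10RB at -0.49, while IL18 (adjusted p = 0.0366) and TLR2, a receptor for bacterial lipoproteins (0.60, adjusted p = 0.0436), passed for DOX. The 4 lectin probes kept their BUCY calls in that fit. The calls of IL6ST and NFKBIA also ended under median centring and with Cy5 alone. The list's median was -0.02 after DOX and 0.06 after BUCY, and -0.02 and -0.07 under median centring. IL17A was above background on 1 array and was not tested.

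Of 9 listed receptors and partners of surfactant protein D, 5 were tested. CD14, the lipopolysaccharide co-receptor that surfactant protein D binds, rose after DOX (log2 change 1.26, limma adjusted p = 0.00103) and after BUCY (0.81, limma adjusted p = 0.0127). CALR, calreticulin, to which collectins bind on cells, rose after BUCY (1.05, limma adjusted p = 0.0214). The BUCY calls of CD14 (0.49) and CALR (0.54) ended under median centring, and that of CALR (0.70) also without BUCY treated piglets 2 and 3. In the mucus list 5 genes were tested. The membrane mucin MUC20 rose after DOX (1.25, limma adjusted p = 3.95e-04), and 0 rose after BUCY, where the calcium-activated secreted protein CLCA1 was at -0.97 (limma adjusted p = 0.0630). Under median centring MUC20 missed the threshold (1.13, adjusted p = 0.0802) and CLCA1 passed for BUCY (-1.56). Another membrane mucin, MUC4, was well above background on 6 of 6 DOX treated arrays but on 1 DOX untreated, 1 BUCY treated and 0 BUCY untreated arrays, and entered the test only through that group; its DOX difference of 0.78 is a description. The counts can be read against the 1.06% of all probes that passed for DOX and the 19.1% for BUCY.

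**Figure D4:**
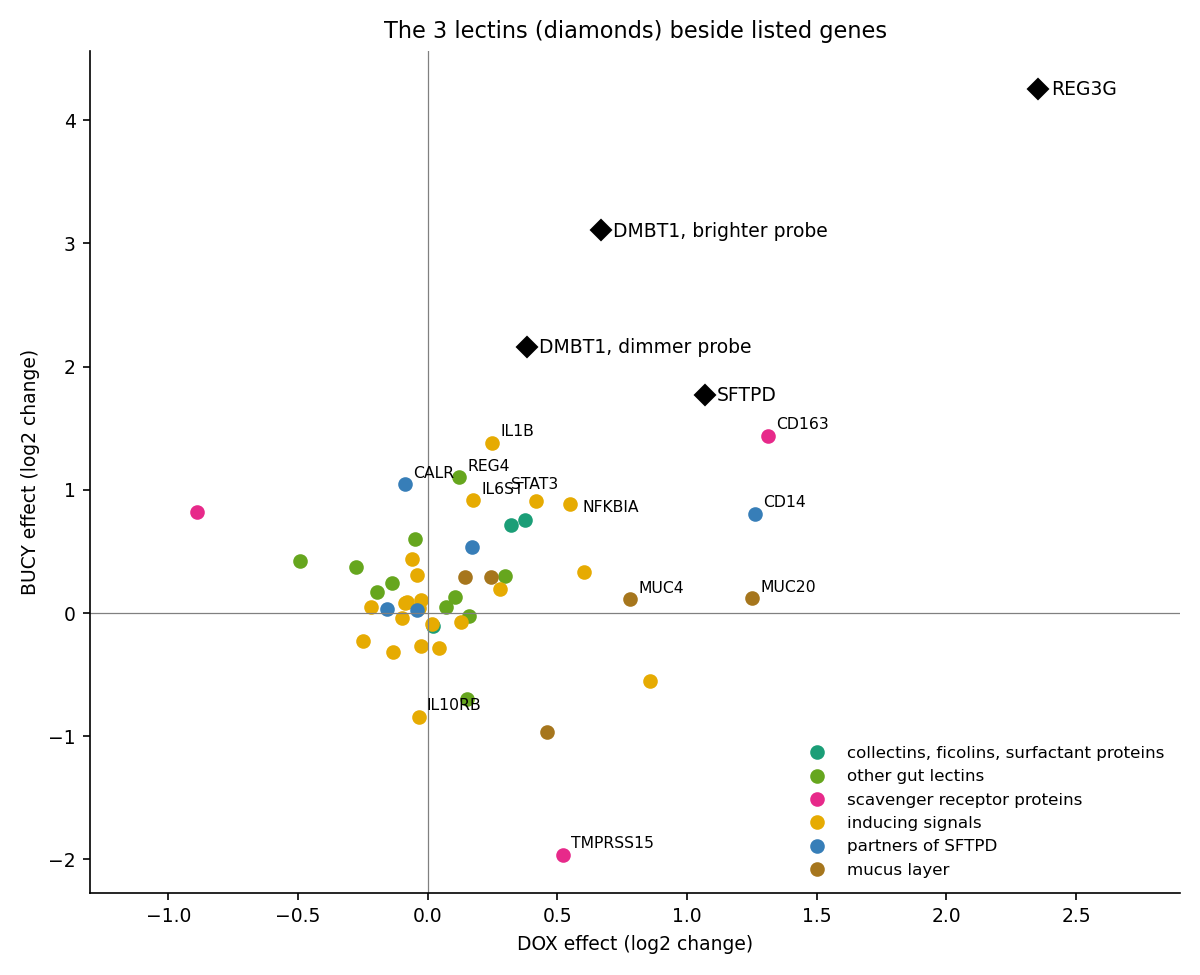
The DOX change (horizontal, log2) is set against the BUCY change (vertical, log2) for the 4 lectin probes (black diamonds) and the tested genes of 6 lists, with symbols on those that passed for either drug. REG3G lies farthest out, at 2.35 and 4.25, and CD163, MUC20 and CD14 lie near or beyond SFTPD on the DOX axis.

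Cell type markers moved in the same comparisons. Of the epithelial markers 4 of 7 were tested and 0 passed for either drug, and their mean level per piglet was -0.14 to 0.34 after DOX against -0.12 to 0.38 untreated, and -0.64 to 0.10 after BUCY against -0.72 to -0.11 untreated. The enterocyte markers ANPEP and SLC5A1, 2 of 5 tested, fell after BUCY, and without BUCY treated piglets 2 and 3 neither passed (-0.49 and -0.39), while FABP1 (1.67) and FABP2 (1.17), carriers of fatty acids, rose. Of 6 tested crypt and proliferation markers 4 rose after BUCY and 0 after DOX, with mean levels per piglet of -0.63 to 0.36 after BUCY against -1.44 to -0.83 untreated; 3 passed without BUCY treated piglets 2 and 3, and 2 under median centring. LYZ, the 1 Paneth cell marker tested of 4, was at 2.20 after DOX and 1.17 after BUCY without passing (limma adjusted p = 0.0879 and 0.229), and passed for DOX without BUCY treated piglets 2 and 3 (adjusted p = 0.0132).

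Of the macrophage markers 3 of 6 were tested. CD163 and CD14 rose after both drugs, as above, and AIF1 fell after BUCY, a call that ended without BUCY treated piglets 2 and 3, with the scanner's log ratios and with Cy5 alone. Of 9 T and NK cell markers 3 fell after DOX and 8 after BUCY, with mean levels per piglet of -0.62 to 0.28 after DOX against 0.25 to 0.57 untreated, and -1.36 to -0.93 after BUCY against -0.32 to 0.39 untreated. Of the 3 tested neutrophil markers 0 passed, and S100A8 (0.50) and S100A12 (0.48) did for DOX without BUCY treated piglets 2 and 3. AMY2, 1 of 3 tested markers of exocrine pancreas, fell after BUCY (-1.23, limma adjusted p = 4.26e-04). The B cell marker CD79A fell after DOX (-0.74, limma adjusted p = 0.0195). The smooth muscle marker DES, 1 of 2, rose after BUCY (1.02, limma adjusted p = 0.0272), a call that ended under median centring (0.38) and without BUCY treated piglets 2 and 3 (0.59). Of 2 goblet cell and 2 liver markers 0 passed for either drug. The part of these markers in the lectin results was not tested.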

How the data were processed

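RNA of 22 piglets was hybridised in Cy5 against a Cy3 pool of all samples, with no dye swap, per the labels; nothing says more of how the pool was made. The deposited scanner files hold median spot and background intensity, and a log10 ratio of processed signals, made by Agilent Feature Extraction (version 10.7.3.1) per the file headers. The deposited value table holds log2 ratios of the authors; per the labels limma was used, and it matched loess and quantile normalised signals. The files hold quality flags of 0 or 1 as other values, per the file headers.

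Median signals were corrected by normexp (offset 50) and loess-normalised in limma 3.58.1 (R 4.3.3). Outlier spots (3 to 52 per array) were dropped, and 0 spots were saturated. Probes well above background in Cy5 on at least 5 arrays were tested (31752, of which 4 are members). Accessions were matched to RefSeq symbols (Sscrofa11.1): 6700 probes (15.4%), 3029 symbols. The array's build is not given in the sources used here, so no coordinates are printed. One model with 4 group means (18 residual degrees of freedom) gave 5 comparisons, Benjamini-Hochberg adjusted. Each listed symbol was represented by its brightest probe. Exact permutation tests were 2-sided; covariation used 100000 permutations within groups, and its intervals Fisher's z with 1 degree of freedom taken off for each further group mean. The scripts were tested on simulated data. The number of arrays limits the precision.

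The members, lists and tests were chosen with earlier results of these data known. The text names the members, for each the 4 symbols most like it by either measure (1 of them is not reported here), and from each list up to 3 genes past the threshold per drug by smallest p, or else the one with the smallest p; further names follow counts of 5 or fewer.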

Additional observations from a re-analysis of the deposited data

Results flagged for a closer look

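With the dimmer DMBT1 probe, DOX treated piglet 3 lay at 1.30, far from the other 5 piglets of its group, the nearest of which was at 0.54. The brighter probe was also highest in this piglet (1.11) without standing apart in this way. Chance flags about 1 in 20 such groups, and 16 groups and probes were checked.

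The DMBT1 change differed between the 2 experiments. The BUCY change exceeded the DOX change by 2.44 on the log2 scale with the brighter probe (limma adjusted p = 3.34e-04) and by 1.78 with the dimmer one (limma adjusted p = 0.00580). With the brighter probe the untreated groups differed by -2.23 (limma adjusted p = 2.06e-07) and the treated groups by 0.21 (limma adjusted p = 0.566). Under median centring the difference between the changes missed the threshold with both probes (limma adjusted p = 0.131 and 0.192).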

How the results depend on the processing

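Beside leaving out single piglets, 331 values were recomputed under other settings. Of these 306 kept their direction and side of the threshold, 8 lost the call, 10 gained it and 7 changed sign; the causes were not tested. The BUCY changes of REG3G and both DMBT1 probes and the untreated differences of SFTPD and both DMBT1 probes kept their calls in every setting.

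Median centring in place of loess moved the median of all probes by over 0.1, to -0.15 for BUCY and -0.13 between the treated groups. It ended the calls of the DOX change of REG3G (2.26, adjusted p = 0.0542), the difference of effects of DMBT1 (2.0 and, with the dimmer probe, 1.46) and the treated difference of REG3G (1.43). It made a call of the treated difference of SFTPD (-1.25), and turned the untreated difference of REG3G (-0.12) and the treated differences of DMBT1 (-0.53, dimmer probe -0.33). With the slide as a fixed block the DOX change of SFTPD passed (1.39), the treated difference of REG3G did not (1.73), and the untreated difference of REG3G (-0.29) and treated differences of DMBT1 (-0.044, dimmer probe -0.22) turned. Slide 6 holds 1 array, which that block removes from the comparisons. With the slide as a random block the DOX change of SFTPD (1.20) and the difference of effects of REG3G (1.96) passed. The DOX changes of SFTPD (1.07) and DMBT1 (0.67) passed with only the groups compared and without BUCY treated piglets 2 and 3, and with array weights (1.09 and 0.70), which ended the treated difference of REG3G (1.75). Without the 6 arrays with a title suffix, BUCY treated piglets 1 and 2 remained of their group. The BUCY change of SFTPD (1.59) and the treated difference of REG3G (2.24) then missed the threshold. With the dimmer probe, r of DMBT1 and REG3G was -0.033, a choice added after seeing the data, as were quantile normalisation of both channels and the other settings for gene lists and markers. The planned Aquantile step leaves log ratios as they were.

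Leaving out each piglet in turn, the DOX change was 0.86 to 1.23 for SFTPD and 0.57 to 0.75 for DMBT1. The difference of effects of REG3G was 1.57 to 2.25 and its untreated difference -0.0048 to 0.36, and the treated difference of SFTPD was -0.90 to -0.47. The DOX change of SFTPD gained a call without BUCY treated piglet 2 or DOX untreated piglet 6, that of DMBT1 without BUCY treated piglet 3, the difference of effects of REG3G without DOX treated piglet 2 or BUCY treated piglet 4, and the treated difference of SFTPD without BUCY treated piglet 5. The untreated difference of REG3G turned without DOX untreated piglet 4, and the other calls of the members held.

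Over these settings the probes called numbered 120 to 1935 for DOX (336 as reported), 1463 to 6560 for BUCY (6068), 150 to 2759 for the difference of effects (2271), 5378 to 10642 between untreated groups (8615) and 1369 to 5168 between treated groups (3738). No paired analysis was possible because the replicate numbers only follow the order of the arrays. SFTPD, the dimmest member, has the least signal over background.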
